A study of Homo sapiens with 8 samples.

Results

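The TCF/LEF factors, beta-catenin and its nuclear adaptors were followed through 4 time points of neural differentiation under WNT3A. The 9 genes, LEF1, TCF7, TCF7L1, TCF7L2, CTNNB1, BCL9, BCL9L, PYGO1 and PYGO2, were taken by name as a pathway group; the rule uses no measured value, but earlier results of these data were known when the group was proposed. All 9 were present among the 35940 gene symbols of the deposited table, each with 1 Ensembl row, and all 9 were among the 14908 genes that reached 1 TPM in at least 2 of the 8 libraries and were tested. TPM is a length-scaled share of the transcripts of a library, so levels of different genes can be set side by side on this scale.

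The cells were ESI017, a wild-type human pluripotent stem cell line. Every group had been grown in mTeSR1 and was then switched to N2B27 (a neural base medium free of serum) plus SB at 10 μM and LDN at 100 nM. WNT3A protein at 300 ng/mL was given at 34 h, and RNA was taken at 34 h, the time of addition, and at 42, 50 and 72 h, which are 8, 16 and 38 h later. The labels do not say whether the 34 h samples were harvested before the protein went in, so 34 h is the earliest time point here and not a proven untreated baseline. Each time point had 2 poly(A) RNA libraries, replicate 1 and replicate 2, and the labels give the same numbers as batches. Cultures left without WNT3A were not analysed here, and elapsed time and WNT3A cannot be told apart in any comparison with 34 h. All samples come from 1 cell line, and the whole culture was measured, so a lower level may be fewer cells of a kind or less RNA per cell, which cannot be told apart.

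Canonical WNT signalling ends at the DNA-bound factors of the TCF/LEF family. Without a WNT signal, a destruction complex built on axin and APC marks beta-catenin for degradation, and TCF/LEF factors sit on target genes with corepressors of the Groucho/TLE family. With the signal, beta-catenin accumulates, enters the nucleus and binds the amino end of the TCF/LEF factor, and it recruits the Pygopus proteins through the adaptors BCL9 and BCL9L. In human and mouse pluripotent cells TCF7L1, also called TCF3, is known mainly as a repressor, while LEF1 and TCF7 are known mainly as activators and as targets of the pathway themselves.

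All TCF/LEF factors share a DNA-binding domain, the HMG box, that recognises a short motif with the core CTTTGA, or TCAAAG on the other strand. The 250 bases before the RefSeq start of SP5, a WNT target, are shown because they hold this core 3 times, and the same windows of TCF7L1 and TCF7L2 are shown because these were the family members with lower levels after 34 h. Sequences are from RefSeq on GRCh38.p14, 5′ to 3′ on the strand of the gene, with the core in capitals: SP5 at chr2:170715087-170715336 (plus strand), TCF7L1 at chr2:85133142-85133391 (plus strand) and TCF7L2 at chr10:112949997-112950246 (plus strand), the first of its 3 starts.
SP5: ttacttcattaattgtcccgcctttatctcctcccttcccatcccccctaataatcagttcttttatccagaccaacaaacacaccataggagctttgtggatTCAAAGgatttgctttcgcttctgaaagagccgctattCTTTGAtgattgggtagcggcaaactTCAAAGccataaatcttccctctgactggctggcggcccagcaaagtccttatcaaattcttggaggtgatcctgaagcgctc
TCF7L1: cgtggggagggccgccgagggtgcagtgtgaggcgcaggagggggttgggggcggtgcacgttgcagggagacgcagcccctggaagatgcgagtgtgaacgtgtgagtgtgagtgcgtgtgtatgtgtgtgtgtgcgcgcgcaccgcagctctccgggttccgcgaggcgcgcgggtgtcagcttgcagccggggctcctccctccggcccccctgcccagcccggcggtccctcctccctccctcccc
TCF7L2: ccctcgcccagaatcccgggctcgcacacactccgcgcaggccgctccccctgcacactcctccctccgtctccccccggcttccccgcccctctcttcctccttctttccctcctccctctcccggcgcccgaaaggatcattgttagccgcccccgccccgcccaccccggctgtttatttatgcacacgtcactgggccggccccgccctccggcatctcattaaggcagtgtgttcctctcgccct

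The matches in SP5 began 147, 109 and 83 bases before its start, the middle one on the gene's own strand as CTTTGA and the outer ones as TCAAAG. On either strand the core was found in 11.2% of the 35116 RefSeq windows of this length. It was in 0 of the 12 windows matched to 8 of the 9 genes described here, among them 1 of LEF1, 2 of TCF7, 1 of TCF7L1 and 3 of TCF7L2. BCL9L had no window. The windows of LEF1, CTNNB1, BCL9 and PYGO2 and the first of TCF7 overlap annotated untranslated regions, and that of TCF7 coding sequence too. Not all of the 12 are therefore wholly upstream of annotated transcripts. The longer forms CTTTGAT and CTTTGAA, which contain the core, were in 2.26% and 3.80% of all windows and in 0 of the 12. A match is a description of the letters, and a window without one says nothing of sites elsewhere in the gene. The printed windows held 45.6% G and C in SP5, 72.0% in TCF7L1 and 68.0% in TCF7L2, against a median of 58.0% over all windows; the other TCF7L2 windows, at later starts, held 42.4% and 48.4%.

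The annotated loci differ in size and in the number of coding transcripts, which the deposited table sums into 1 value per gene. In GENCODE release 29 on GRCh38, LEF1 lies on chromosome 4 from 108047545 to 108168956 (minus strand, 6 coding transcripts). TCF7 lies on chromosome 5 from 134114711 to 134151865 (plus strand, 14 coding transcripts), TCF7L1 on chromosome 2 from 85133410 to 85310388 (plus strand, 2) and TCF7L2 on chromosome 10 from 112950250 to 113167678 (plus strand, 21). CTNNB1 spans 41194741 to 41260096 on chromosome 3 (plus strand, 43 coding transcripts). LEF1 and TCF7 are known to give short forms without the beta-catenin-binding end, which act against the long forms, and a value per gene does not separate them. Exons of TCF7 overlap an exon of SKP1 on the opposite strand, and SKP1 had 546 to 657 TPM; whether the counting used strand is not given in the sources used here.

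The libraries of one time point had Spearman correlations of 0.980 to 0.984 over the tested genes, and those of different time points 0.933 to 0.982. The marker lists are given as levels, since some of their genes pass the filter only through the time point where they are high. The 6 pluripotency markers summed to 3415, 2997, 2552 and 1950 TPM in replicate 1 at 34, 42, 50 and 72 h. POU5F1 fell to 354 and 388 TPM by 72 h (-1.64, limma adjusted p 7.66e-06), and SOX2, which the neural list also holds, rose there (0.64, limma adjusted p 0.00117). LIN28A did not fall, with means of 902, 1067, 1126 and 1024 TPM, and was 1078 of the 1950 TPM in replicate 1 at 72 h. NANOG was already low at 34 h (mean 2.03 TPM). The 6 neural progenitor markers summed to 378, 376, 493 and 717 TPM; SOX1 reached 56.5 and 45.2 TPM at 72 h, whereas HES5 was listed at 0 in both 72 h libraries. LEF1 and TCF7 are also high in T lymphocytes, and of the 4 lymphocyte markers CD3D and CD2 were listed at 0 in all libraries while CD3E and PTPRC did not exceed 0.248 TPM.

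Markers of other lineages moved beside the TCF/LEF genes. The 6 mesoderm markers summed to 1.76, 16.2, 12.5 and 3.07 TPM in replicate 1 at 34, 42, 50 and 72 h and to 1.81, 12.0, 9.92 and 3.39 TPM in replicate 2, so the sum was highest at 42 h and 50 h. Most of it at 42 h was TBXT (11.4 and 7.92 TPM), while TBX6 was highest at 72 h (1.00 and 1.07 TPM). The 5 endoderm markers summed to 13.3, 13.1, 7.90 and 6.92 TPM in replicate 1, with SOX17 listed at 0 in every library. Among them FOXA2 had means of 12.7, 7.38, 5.73 and 0.720 TPM and CXCR4 1.43, 5.5, 2.34 and 6.77 TPM. The 5 neural crest markers summed to 8.68, 5.57, 4.01 and 7.08 TPM in replicate 1 and to 6.72, 3.40, 2.92 and 7.22 TPM in replicate 2. The order of 34 h and 72 h thus differed between the replicates. FOXD3 had means of 4.56, 0.770 and 0.287 TPM before it was listed at 0 at 72 h. PAX3 went the other way, with means of 0.134, 0.323, 0.634 and 4.525 TPM, and SOX10 stayed between 2.00 and 3.66 TPM. FOXA2 and FOXD3 thus had their highest and lowest levels where TCF7L1 did, while CXCR4 and PAX3, of the same lists, were highest at 72 h. In mean the pluripotency markers POU5F1, DPPA4 and TDGF1 were also highest at 34 h and lowest at 72 h, so this course was not particular to FOXA2 and FOXD3. The part of all of these markers in the levels of the TCF/LEF genes was not tested.

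LEF1 and TCF7 had the largest rises of the 9 genes at 42 h, with ratios of means of 5.71 and 5.95 to 34 h. LEF1 measured 7.77, 47.8, 49.7 and 30.1 TPM in replicate 1 at 34, 42, 50 and 72 h, and 9.94, 53.4, 47.0 and 37.4 TPM in replicate 2. All 6 later libraries lay above both at 34 h, and the 72 h libraries lay below all of those at 42 and 50 h. From 34 h to 42 h the mean went from 8.86 ± 1.54 to 50.6 ± 4.01 TPM (SD, n = 2), a log2 change of 2.39 ± 0.15 (SE) on the log2(TPM + 1) scale used for every change below (limma adjusted p 0.000231). This was rank 34 among the 14908 tested genes by rise. Replicate 1 alone gave 2.47 and replicate 2 alone 2.31, and the call held in all 18 alternative analyses. At 72 h the change from 34 h was 1.82 ± 0.15 (adjusted p 0.000131), and the step of -0.51 ± 0.15 between 50 h and 72 h was not called (adjusted p 0.0904).

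TCF7, the other family member known as an activator, moved in the same direction from a lower level. TCF7 gave 5.01, 24.2, 22.2 and 10.9 TPM in replicate 1 at 34, 42, 50 and 72 h, and 4.26, 30.9, 18.7 and 16.7 TPM in replicate 2. The 42 h libraries were the highest and no later library overlapped those at 34 h. Relative to 34 h its log2 changes were 2.33, 1.93 and 1.37 (SE 0.22 each) at the 3 later time points (adjusted p 0.00112, 0.00157 and 0.00306). Within the replicates the 72 h change was 0.99 and 1.75, the widest gap between the replicates among the called changes of these genes. With genes of any level tested, in place of those above the 1 TPM filter, the adjusted p was 0.0558, 0.0574 and 0.0546, so none of these calls held there.

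TCF7L1 had the highest level of the 4 factors at 34 h and fell over the course. TCF7L1 measured 96.8, 62.9, 57.1 and 40.4 TPM in replicate 1 at 34, 42, 50 and 72 h, and 81.1, 55.4, 50.0 and 44.0 TPM in replicate 2. The 34 h libraries lay above all others and the 72 h libraries below all others, while those at 42 and 50 h overlapped. The change from 34 h was -0.58 ± 0.13 at 42 h, which did not pass (adjusted p 0.0646), -0.72 ± 0.13 at 50 h (0.0151) and -1.05 ± 0.13 at 72 h (0.000876). At 72 h the mean was 42.2 ± 2.50 TPM, a ratio of 0.474 to 34 h, with changes of -1.24 and -0.87 within the replicates, and this call held in all 18 alternatives. The 42 h change passed after quantile normalization (0.0399) and among genes with a mean of at least 5 TPM (0.0495). The 50 h call was lost without replicate 1 at 34 h (0.104), without replicate 2 at 50 h (0.0749), in a fit of only 34 h and 50 h (0.0741) and with genes of any level tested (0.121).

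TCF7L2, also called TCF4, fell at 42 h and stood higher again at 72 h. TCF7L2 gave 78.6, 48.4, 52.8 and 60.1 TPM in replicate 1 at 34, 42, 50 and 72 h, and 73.9, 49.5, 45.0 and 64.2 TPM in replicate 2. The 72 h libraries lay between those at 34 h and those at 42 and 50 h with no overlap on either side. Its log2 change from 34 h was -0.63 ± 0.11 at 42 h and -0.64 ± 0.11 at 50 h (adjusted p 0.0226 and 0.0123), and -0.29 ± 0.11 at 72 h, which did not pass (0.0911). The later step from 50 h to 72 h was 0.34 ± 0.11, with 0.18 and 0.50 within the replicates, and did not pass either (adjusted p 0.106). Leaving out any single library of 34 h or 42 h ended the 42 h call (0.110 to 0.151), and the 50 h call was lost without replicate 1 or replicate 2 at 34 h (0.0865 and 0.0617) or replicate 2 at 50 h (0.0554). With the compared time points alone the adjusted p was 0.0613 at 42 h and 0.0786 at 50 h. With genes of any level tested it was 0.122 at 42 h and 0.0704 at 50 h, and without a mean trend in the variance the 42 h value was 0.0576.

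**Figure D1:**
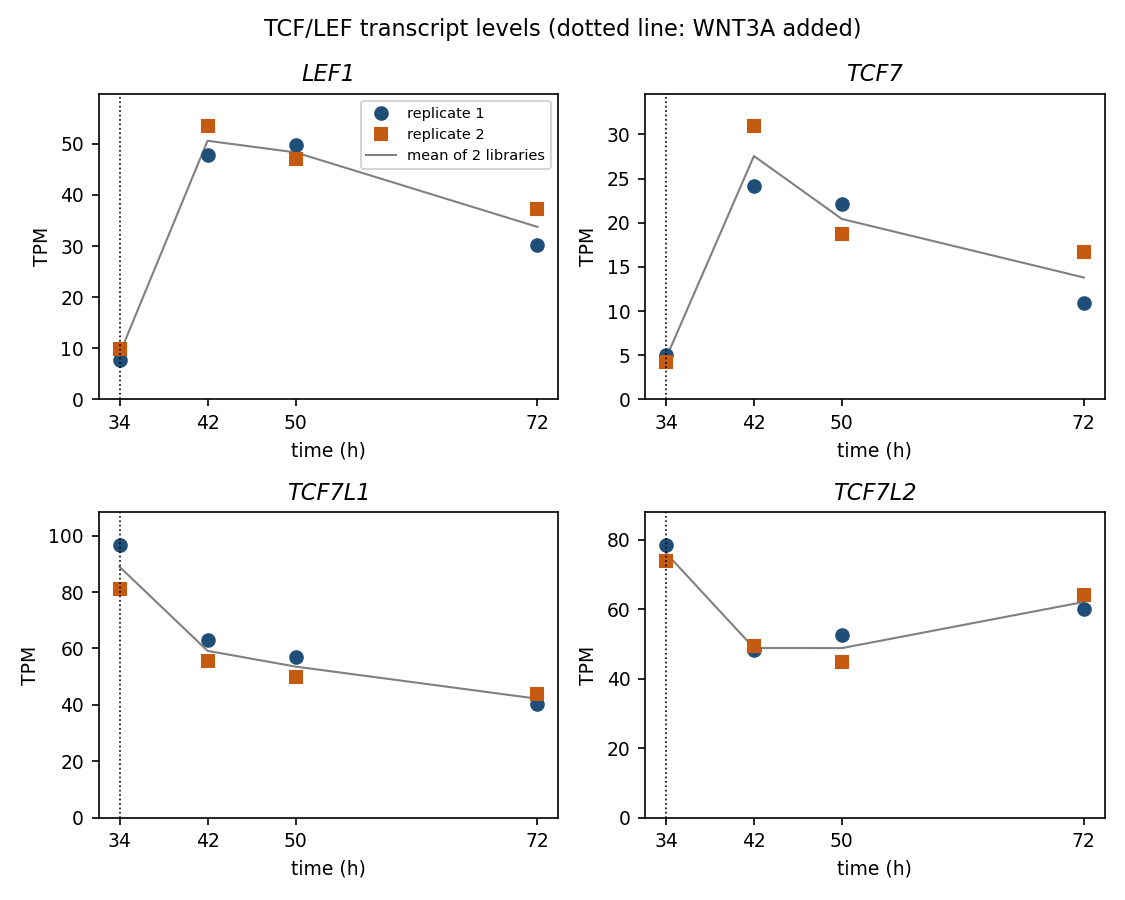
TPM of LEF1, TCF7, TCF7L1 and TCF7L2 (vertical axes, each from 0) against time in hours; circles are replicate 1, squares replicate 2, the grey line joins the means of 2 libraries, and the dotted line marks WNT3A addition. LEF1 and TCF7 are lowest at 34 h, TCF7L1 and TCF7L2 highest there, and TCF7L2 is higher at 72 h than at 42 h.

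The summed level of the 4 factors moved less than its make-up. In replicate 1 the sum was 188, 183.3, 182 and 142 TPM at 34, 42, 50 and 72 h, and in replicate 2 it was 169, 189, 161 and 162 TPM. The 34 h range overlapped those of 42 h and 50 h, which did not overlap each other, and at 72 h 1 library lay below all of the earlier ones. The joint share of LEF1 and TCF7 was 6.80%, 39.3%, 39.5% and 29% in replicate 1 over the same time points, and 8.39%, 44.6%, 40.9% and 33.3% in replicate 2. Their own sum was 13.5 ± 1.00 TPM at 34 h and 78.2 ± 8.78 TPM at 42 h, while TCF7L1 and TCF7L2 together went from 165 ± 14.4 to 108 ± 4.55 TPM. The shares are descriptions of each library and were not tested.

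Each gene's share followed its own course. LEF1 held 5.00 ± 1.23%, 27.2 ± 1.54%, 28.3 ± 1.33% and 22.2 ± 1.24% at 34, 42, 50 and 72 h. TCF7 held 2.59 ± 0.105%, 14.8 ± 2.23%, 11.9 ± 0.401% and 9.0 ± 1.80% at the 4 time points. TCF7L1 went from 49.7 ± 2.46% at 34 h to 31.8 ± 3.59%, 31.3 ± 0.197% and 27.8 ± 1.02%. TCF7L2 had 42.7 ± 1.33% at 34 h, 26.3 ± 0.178% at 42 h, 28.5 ± 0.728% at 50 h and 41.0 ± 2.01% at 72 h, so its share at the last time point overlapped that at the first in range. Taken from log2(TPM + 1) values, the 34 h shares would be 17.8% for LEF1 and 13.4% for TCF7, 35.0% for TCF7L1 and 33.8% for TCF7L2, so the size of the shift depends on the linear scale.

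The order of TCF7L1 and TCF7L2 changed at 72 h. TCF7L1 stood above LEF1 in every library, 12.4 and 8.16 times at 34 h, but 1.32 and 1.04 times at 42 h, 1.15 and 1.07 times at 50 h and 1.34 and 1.18 times at 72 h. TCF7L1 was also above TCF7L2 in the 6 libraries up to 50 h, with ratios from 1.08 to 1.30, and below it in both at 72 h, with 0.673 and 0.685. The ratio of LEF1 to TCF7 ranged from 1.55 to 2.75 over the 8 libraries, and its ranges overlapped between 34 h and each later time point but not between 42 h and 50 h.

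**Figure D2:**
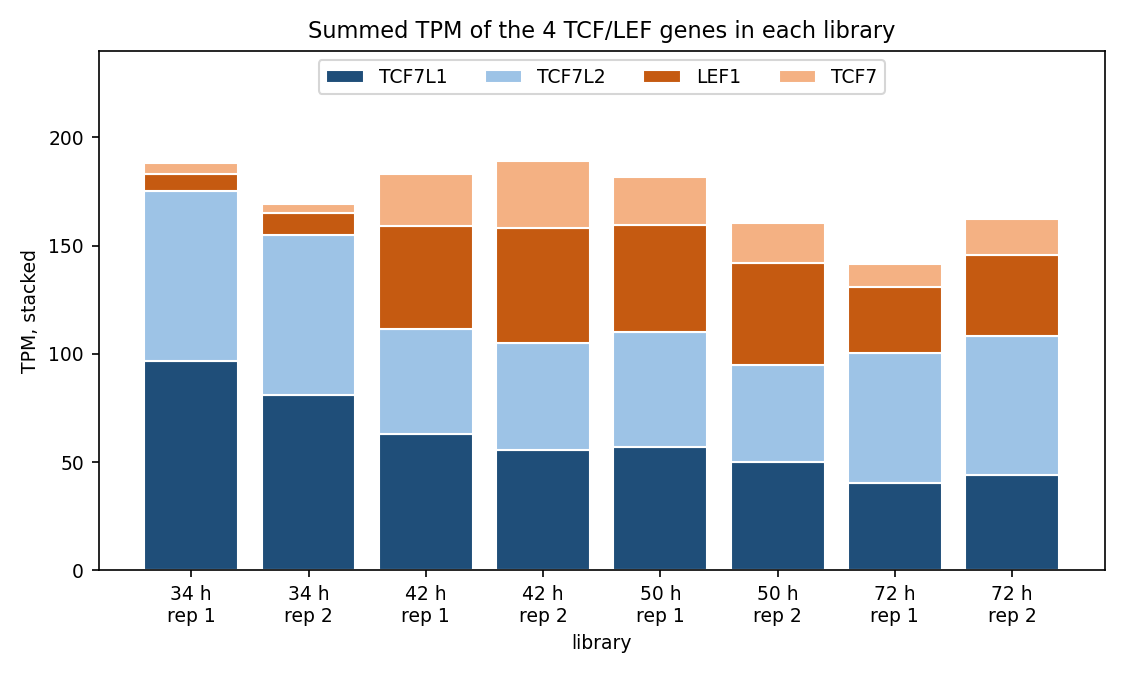
Stacked TPM of the 4 TCF/LEF genes (vertical axis) in each of the 8 libraries (horizontal axis); dark blue is TCF7L1, light blue TCF7L2, dark orange LEF1 and light orange TCF7. The orange part is 6.80% and 8.39% of the bar at 34 h and 29% to 44.6% after it, while bar heights run from 142 to 189 TPM.

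CTNNB1, which encodes beta-catenin, was the most abundant of the 9 genes in every library and had no call in any comparison. CTNNB1 measured 386, 367, 365 and 333 TPM in replicate 1 at 34, 42, 50 and 72 h, and 346, 284, 289 and 375 TPM in replicate 2. The libraries of all 4 time points overlapped. The log2 change from 34 h was -0.18 at 42 h (95% interval -0.53 to 0.17), -0.17 at 50 h (-0.52 to 0.18) and -0.05 at 72 h (-0.40 to 0.30). Replicate 1 was above replicate 2 at 34, 42 and 50 h and below it at 72 h. BCL9L and TCF7L1 had that same order of the replicates at each time point. Transcript level does not show the amount of beta-catenin protein, which the pathway controls by degradation. CTNNB1 stood at 1.5 to 2.35 times the summed TPM of the 4 factors.

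The BCL9 adaptors, which bridge beta-catenin and the Pygopus proteins, had no call either. BCL9 gave 48.8, 52.2, 65.1 and 60.0 TPM in replicate 1 at 34, 42, 50 and 72 h, and 38.4, 53.1, 49.4 and 55.4 TPM in replicate 2. Every later library lay above both at 34 h, and the 72 h change of 0.41 ± 0.16 had an adjusted p of 0.102 and an interval of 0.04 to 0.77. The replicates gave 0.29 and 0.52, and leaving out 1 library moved the change between 0.24 (without replicate 2 at 34 h) and 0.58 (without replicate 1 at 34 h). BCL9L measured 54.9, 52.3, 39.4 and 29.6 TPM in replicate 1 at 34, 42, 50 and 72 h, and 34.4, 45.0, 32.2 and 35.6 TPM in replicate 2. Its 34 h libraries were the farthest apart, and the range at 34 h overlapped that at every other time point. The 72 h change of BCL9L was -0.41 ± 0.22 (adjusted p 0.209), with -0.87 and 0.05 within the replicates, and it passed without replicate 2 at 34 h (0.0450). The ratio of BCL9 to BCL9L was 0.889 and 1.11 at 34 h and 2.03 and 1.56 at 72 h, while their sum stayed between 72.8 and 105 TPM.

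The Pygopus genes encode nuclear proteins with a PHD finger that reads methylated histone H3, and both rose by 72 h. PYGO2 gave 29.1, 35.7, 39.4 and 45.5 TPM in replicate 1 at 34, 42, 50 and 72 h, and 30.9, 33.6, 38.4 and 45.0 TPM in replicate 2. The 4 time points did not overlap, each lying above the one before. The change at 72 h was 0.58 ± 0.10 (adjusted p 0.00487; 0.63 and 0.53 within the replicates), held in all 18 alternatives, and ranked 2091 among all tested genes by rise; the changes at 42 h and 50 h did not pass (0.449 and 0.0784). PYGO1 was the lowest of the 9 genes. PYGO1 measured 1.03, 1.25, 1.52 and 3.25 TPM in replicate 1 at 34, 42, 50 and 72 h, and 0.850, 1.46, 1.23 and 2.69 TPM in replicate 2. The 72 h libraries stood apart from the rest, with a mean ratio of 3.16 to 34 h and a log2 change of 1.03 ± 0.22 (adjusted p 0.0126; 1.07 and 1.00 within the replicates). Leaving out replicate 2 at 34 h or replicate 1 at 72 h ended that call (0.0724 and 0.0897), as did testing genes of any level (0.0778). At levels near 1 TPM the added 1 TPM lowers the fold, and PYGO1 held 2.67% to 6.67% of the summed PYGO level. In 1 of its 34 h libraries PYGO1 was below 1 TPM. It therefore needed later libraries to pass the filter, and its rise was partly fixed by that.

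**Figure D3:**
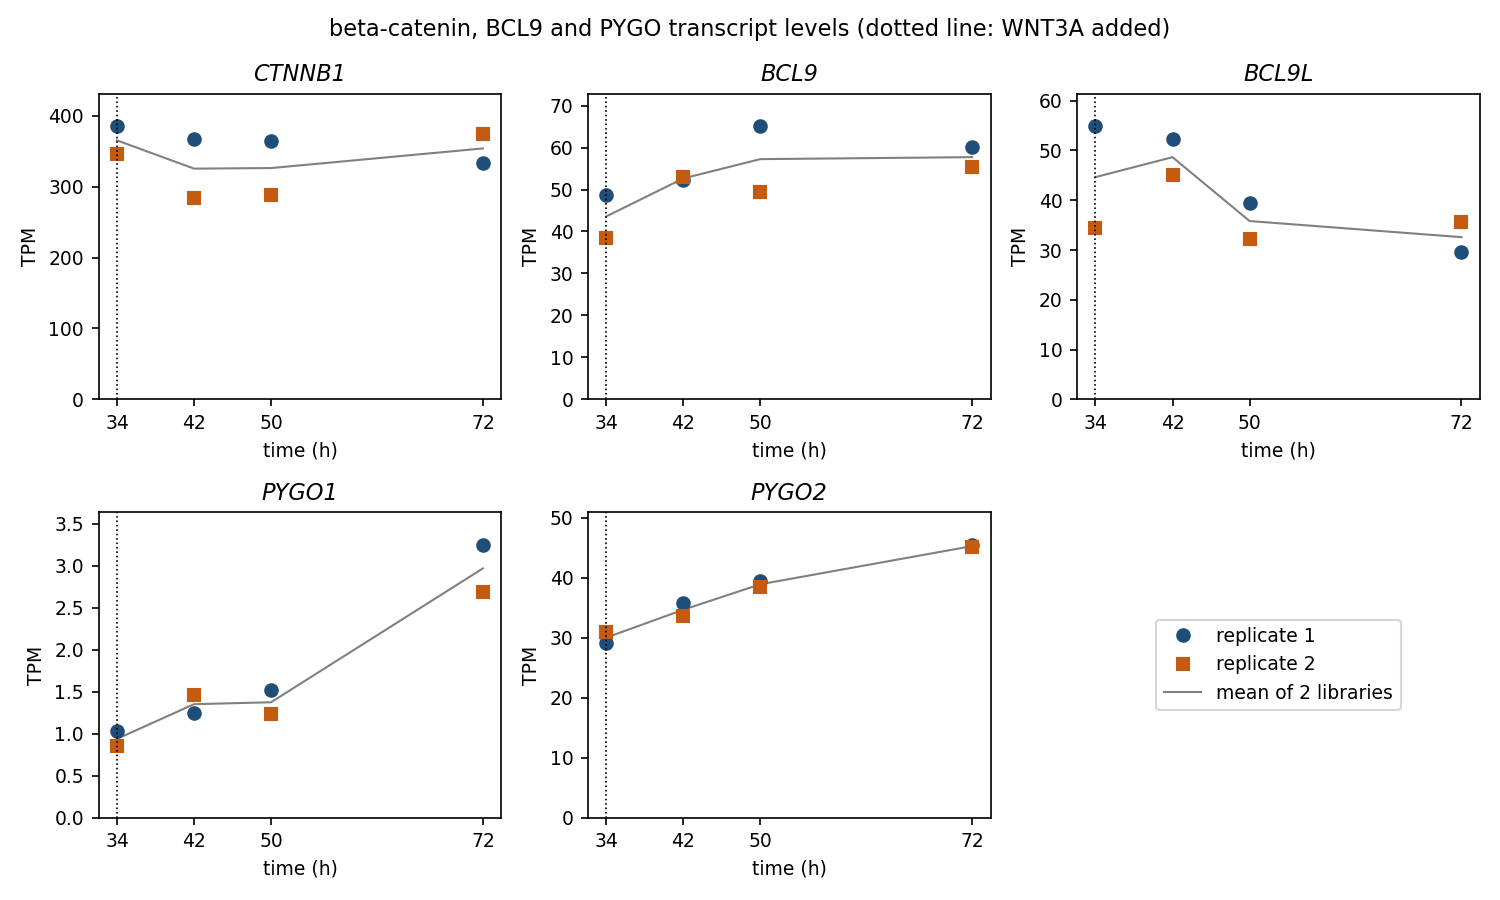
TPM of CTNNB1, BCL9, BCL9L, PYGO1 and PYGO2 (vertical axes, each from 0) against time in hours, with circles for replicate 1, squares for replicate 2 and a grey line through the means of 2 libraries. PYGO2 is higher at each time point than at the one before, and CTNNB1 stays between 284 and 386 TPM.

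Counted over the 9 genes, 2 rose and 1 fell at 42 h against 34 h (LEF1, TCF7 and TCF7L2), where 2.58% of all tested genes were called, 1.78% raised and 0.792% lowered. At 50 h against 34 h 2 rose and 2 fell, with TCF7L1 added, against 6.26% of all genes (3.52% raised and 2.74% lowered). At 72 h against 34 h 4 rose and 1 fell (LEF1, TCF7, PYGO1, PYGO2 and TCF7L1), and 24.0% of all genes were called (12.7% raised and 11.3% lowered). Among them PYGO1 had needed libraries after 34 h to pass the filter. The median change of the 9 was 0.20, 0.29 and 0.41 at 42, 50 and 72 h, beside 0.01, 0.04 and 0.06 over all tested genes. These 3 comparisons share the 34 h libraries. The libraries of the compared time points did not overlap for 7 of the 9 genes in each of them, where 42.4%, 48.4% and 64.6% of all genes did not overlap at 42, 50 and 72 h.

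Between successive later time points 0 of the 9 genes passed by limma. From 42 h to 50 h 0 also had an unadjusted p under 0.05, where 0.0939% of all genes were called (0.0604% raised and 0.0335% lowered) and 9.35% had such a p. The libraries did not overlap for 3 of the 9, against 37.3% of all genes. From 50 h to 72 h 5 had an unadjusted p under 0.05 (LEF1, TCF7, TCF7L1, TCF7L2 and PYGO1), where 7.33% of all genes were called (2.92% raised and 4.41% lowered) and 22.4% had such a p. The libraries did not overlap for 6 of the 9, against 51.7% of all genes. In that step LEF1, TCF7 and TCF7L1 had log2 changes of -0.51, -0.56 and -0.34, TCF7L2 and PYGO1 had 0.34 and 0.74, and both replicates had the sign of the mean for each of these 5. For TCF7 the replicates gave -0.96 and -0.16, and the change was -0.28 without replicate 1 at 72 h and -0.84 without replicate 2 there. PYGO1 passed there without a mean trend in the variance (adjusted p 0.0258), the 1 call among the 9 in this step over all alternatives.

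**Figure D4:**
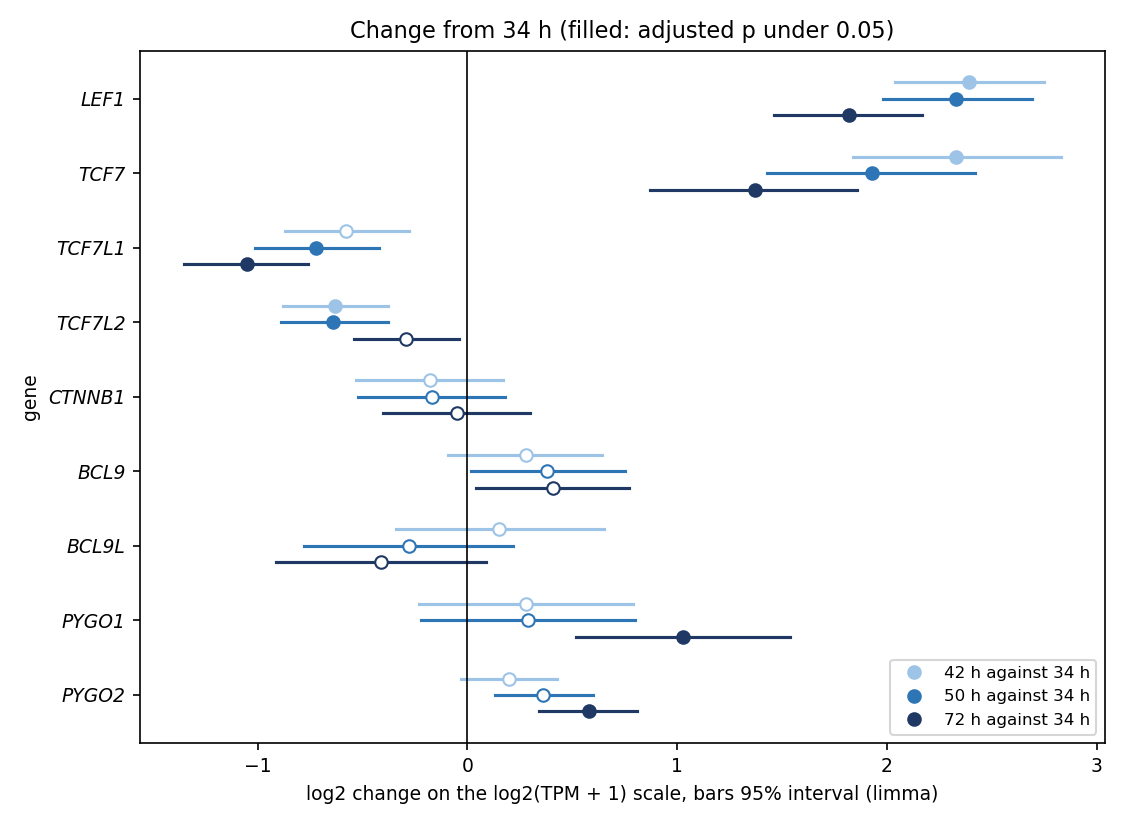
Log2 change from 34 h on the log2(TPM + 1) scale (horizontal axis) for each of the 9 genes (vertical axis) at 42 h (light), 50 h (middle) and 72 h (dark blue); bars are 95% intervals from limma and filled circles have an adjusted p under 0.05. LEF1 and TCF7 lie between 1.37 and 2.39, and TCF7L1 reaches -1.05 at 72 h.

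By level, at 34 h CTNNB1 stood first, then TCF7L1, TCF7L2, BCL9L and BCL9, PYGO2, LEF1, TCF7 and PYGO1, and only BCL9L and BCL9 overlapped among neighbours. At 42 h TCF7L1 still stood second, and BCL9, LEF1, TCF7L2 and BCL9L, with means of 52.6, 50.6, 48.9 and 48.6 TPM, overlapped one another or a neighbour. At 72 h TCF7L2 and BCL9 had means of 62.2 and 57.7 TPM and PYGO2 and TCF7L1 45.3 and 42.2 TPM. LEF1 and BCL9L followed with overlapping libraries and means of 33.8 and 32.6 TPM, and TCF7 and PYGO1 were last.

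Of the 9 genes of the Groucho/TLE, CtBP and HDAC classes, 1 rose and 0 fell at 42 h, 1 rose and 1 fell at 50 h, and 3 rose and 3 fell at 72 h, all against 34 h, with median changes of -0.12, -0.15 and -0.07. Over all tested genes 2.58%, 6.26% and 24.0% were called. The calls at 50 h were TLE3 and TLE2, lost in 6 and 5 of 18 alternatives (adjusted p up to 0.199 and 0.227). TLE3 encodes a Groucho corepressor that binds TCF/LEF factors. TLE3 measured 43.7, 89.7, 67.9 and 90.7 TPM in replicate 1 at 34, 42, 50 and 72 h, and 45.4, 98.1, 98.1 and 77.7 TPM in replicate 2. All of its later libraries lay above both of 34 h. Its rise was 1.06 ± 0.17 at 42 h (adjusted p 0.0152) and 0.90 ± 0.17 at 72 h (0.00653). Leaving out any single library of 34 h or 42 h, or testing genes of any level, ended the 42 h call (adjusted p up to 0.210). The 72 h call was lost without replicate 1 at 72 h and with genes of any level tested (up to 0.0883). TLE2 fell, from 17.5 and 11 TPM in the 34 h libraries to 2.32 and 3.37 TPM in those of 72 h (-1.97 ± 0.30, adjusted p 0.00269; 0.0572 with genes of any level tested). TLE1 went from 48.2 and 43.5 TPM (34 h) to 33.6 and 35.1 TPM (72 h), and TLE4 from 20.5 and 17.7 TPM to 30.5 and 24.6 TPM. Their calls at 72 h (-0.41 and 0.50, adjusted p 0.0337 and 0.0412) were lost in 7 and 10 of 18 alternatives. CTBP1 rose (0.65, adjusted p 0.0117) and CTBP2 fell (-0.34, 0.0433) at 72 h, calls lost in 3 and 11 of 18. The summed level of the 9 genes of these classes lay between 1037 and 1142 TPM in all libraries. HDAC2 alone held 317 to 383 TPM of it, so the sum does not show the moves of TLE2 and TLE3.

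In the destruction complex, which marks beta-catenin for degradation, 1 of 10 genes rose and 0 fell at 42 h and at 50 h, where 2.58% and 6.26% of all tested genes were called. That gene was AXIN2, a scaffold and WNT target that feeds back on the pathway. AXIN2 gave 20.6, 101, 98.5 and 63.9 TPM in replicate 1 at 34, 42, 50 and 72 h, and 15.7, 85.9, 90.0 and 70.9 TPM in replicate 2. At 42 h this was a change of 2.32 ± 0.15 (adjusted p 0.000231). Its relative AXIN1 stayed between 21.2 and 31.5 TPM over the 8 libraries. At 72 h 2 of the 10 rose, AXIN2 (1.85) and APC2 (1.27), and FBXW11 fell (-0.40, adjusted p 0.0426, and 0.0533 with the replicate block; lost in 9 of 18 alternatives), beside 24.0% of all genes called. The median change of the 10 was 0.05, 0.09 and -0.02. Of 5 genes of antagonists and TCF/LEF kinases 0 passed by limma at 42 h and 50 h (1 had an unadjusted p under 0.05 at each), and 1 rose and 1 fell at 72 h (medians 0.09, 0.12 and 0.09), beside the same shares of all genes. CTNNBIP1, whose product keeps beta-catenin from TCF/LEF factors, rose at 72 h by 0.48 ± 0.10 (adjusted p 0.0124), a call lost without replicate 2 at 34 h and without either 72 h library (up to 0.0765). TNIK, a kinase of TCF7L2, went from 21.4 and 17.3 TPM (34 h) to 7.42 and 7.80 TPM (72 h), a fall of 1.23 on the log2 scale (adjusted p 0.000770).

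Of 11 coactivator genes, 0 passed at 42 h by limma (2 had an unadjusted p under 0.05), 1 rose at 50 h, and 4 rose and 1 fell at 72 h against 34 h, with median changes of 0.05, 0.12 and 0.19. Of all tested genes 2.58%, 6.26% and 24.0% were called, with 12.7% raised and 11.3% lowered at 72 h. With the replicate block CDC73 was called as well at 72 h (adjusted p 0.0383, 0.0922 without it). TBL1X, whose product binds beta-catenin at target genes, rose from 32.9 and 25.5 TPM at 34 h to 59.2 and 57.8 TPM at 72 h (0.99 ± 0.17, adjusted p 0.00447; 0.0668 with genes of any level tested), while its rise at 50 h, the 1 call there, was lost in 13 of 18 alternatives. LDB1 and the single-stranded DNA-binding proteins SSBP2, SSBP3 and SSBP4 form a complex that holds Pygopus at enhancers. LDB1, SSBP2 and SSBP4 rose at 72 h by 0.53, 0.64 and 0.91, and SSBP3 fell by 0.33 on the log2 scale (adjusted p 0.0188, 0.0127, 0.0276 and 0.0490). These calls were lost in 5, 3, 6 and 11 of 18 alternatives. In the cadherin-bound pool, where beta-catenin links cadherins to the cytoskeleton, 1 of 6 genes rose at 42 h (CDH2), 1 rose and 1 fell at 50 h, and 2 rose (CDH2, CTNNA2) and 1 fell (CDH1) at 72 h, with medians of 0.01, -0.01 and -0.03 and beside those same shares of all genes; the replicate block added JUP at 72 h (adjusted p 0.0370, 0.0664 without it). CDH1 went from 150 and 137 TPM (34 h) to 11.7 and 12.5 TPM (72 h), and CDH2 from 15.2 and 14.6 TPM to 73.3 and 70.2 TPM; the fall of CDH1 at 50 h was lost in 9 of 18 alternatives.

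Of 10 direct WNT target genes, 9 were tested. SP5, RNF43, TNFRSF19 and NOTUM passed the filter only through libraries after 34 h. NKD1 reached 1 TPM in 1 of the 34 h libraries (0.859 and 2.59 TPM), so it too needed later libraries to pass. A rise of these genes was partly fixed by the filter. Of the other tested genes, AXIN2, APCDD1 and CCND1 rose at 42 h, and these and ZNRF3 rose at 50 h and at 72 h. Over all tested genes 1.78%, 3.52% and 12.7% were raised at 42, 50 and 72 h. The ZNRF3 call at 50 h (0.84, adjusted p 0.0467) was lost in 13 of 18 alternatives and that at 72 h in 1, and at 42 h APCDD1 was lost in 2 and CCND1 in 1. This list was chosen with earlier results of these data known, so its direction is no independent evidence. The window of SP5 printed above holds the TCF/LEF core 3 times, and SP5 was the 1 gene with the core among the 4 of these targets that had windows (6 in all). SP5 measured 0.255, 182, 226 and 201 TPM in replicate 1 at 34, 42, 50 and 72 h, and 0.106, 146, 149 and 194 TPM in replicate 2. All later libraries lay far above those at 34 h, and in mean SP5 stood higher at 72 h than at 42 h while LEF1 and TCF7 stood lower. CCND1, a cyclin gene, went from 88.8 and 65.6 TPM (34 h) to 301 and 246 TPM (42 h). LGR5 did not exceed 0.145 TPM in any library.

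The genes whose course was most like that of each TCF/LEF factor were taken by Pearson r of the log2 values over the 8 libraries, among up to 1495 genes with at least 5 TPM in mean at some time point and a range of at least 1 on the log2 scale. All libraries share the same time points, so r describes a common course. Nearest to LEF1 were PDE1B, TRIB2, TNFRSF11B, COLEC12 and DACT1 (r from 0.982 to 0.990). TRIB2, a pseudokinase gene, had means of 26.9, 79.8, 76.4 and 61.6 TPM at 34, 42, 50 and 72 h. DACT1, which encodes a Dishevelled-binding protein, had 2.81, 33.9, 39.0 and 30.6 TPM. Nearest to TCF7 were SIRPA, GALNT10, NTN1, PLEKHA8 and GAD1 (0.971 to 0.977), and NTN1, which encodes the guidance cue netrin 1, had means of 3.35, 14.0, 10.2 and 7.42 TPM. Nearest to TCF7L1 were IRF2BPL, PHC1P1, HSPB8, FOXJ1 and GALNT9 (0.982 to 0.994), all highest at 34 h and lowest at 72 h in mean. FOXJ1, a ciliogenesis regulator, had means of 14.8, 4.5, 4.07 and 1.49 TPM. The genes nearest to TCF7L2 were less close, FZD8, NPTX1, LFNG, ANOS1 and FZD5 (0.840 to 0.957). The WNT receptor gene FZD8 had means of 11.1, 4.52, 5.45 and 7.22 TPM, and the receptor gene FZD5 20.0, 8.27, 7.83 and 8.13 TPM.

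Between the factors themselves r over the 8 libraries was 0.967 for LEF1 and TCF7 and 0.538 for TCF7L1 and TCF7L2. It was -0.745 for LEF1 and TCF7L1, -0.907 for LEF1 and TCF7L2, -0.596 for TCF7 and TCF7L1 and -0.885 for TCF7 and TCF7L2.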

How the data were processed

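Poly(A) RNA of 8 ESI017 samples, 2 at each of 4 time points, was sequenced from both ends (labels' protocols). The authors deposited TPM per Ensembl gene in 1 table, all of whose value columns were used. Salmon 1.9.0 and the build GRCh38 are named in the submitters' processing notes; the annotation, filters and the step from transcripts to genes are not given in the sources used here. Every column summed to 1000000. TPM keeps no depth, so the depth per library is unknown and no counting interval or floor was computed.

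Rows with the same symbol were summed (1034 of 35940 symbols; none of the 9 genes). Genes that reached 1 TPM in 2 or more libraries were tested as log2(TPM + 1), which understates the change of low genes. limma 3.58.1 in R 4.3.3 fitted 1 mean per time point to all 8 libraries, with a mean trend in the variance, and p-values are two-sided and Benjamini-Hochberg adjusted over 14908 genes, called under 0.05. The script was tested on simulated data. An exact permutation test of 2 against 2 libraries cannot go below p = 0.333 and was not used. The series' design text calls the second set an independent biological one, and the labels number the replicates as batches, so the numbers pair the samples by label; the replicate differences correlated across genes at 0.0949, 0.195 and 0.142 among 34, 42 and 50 h and at -0.0445 to -0.104 with 72 h.

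The 9 genes and the lists were chosen with earlier results of these data known. Genes named are the 9, genes of 6 fixed pathway lists and of the fixed cell type markers that are called or give a level beside a result, and the 5 genes most like each TCF/LEF factor. The motif search was added with the data in hand. Alternatives were a pseudocount of 0.1, no filter, a floor of 5 TPM on the mean, trimmed-mean rescaling, quantile normalization, omission of mitochondrial genes, no variance trend, a fit of only the 2 time points compared, a replicate block, Ensembl rows kept apart, and omission of each library. Promoter windows and positions come from RefSeq (GRCh38.p14) and GENCODE release 29.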

Additional observations from a re-analysis of the deposited data

How the results depend on the processing

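Of the 805 recomputed changes of the 9 genes, 758 kept their direction and side of the threshold, 22 calls were lost, 4 were gained and 21 that had no call changed sign. With 2 libraries a time point and unknown depth, changes below about the intervals given cannot be told from 0. The cause of a lost call was not tested. When a library is left out, the lone library of its time point is assumed to vary like the others.

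Without the filter on low values 1, 1 and 3 of the 9 genes were called at 42, 50 and 72 h against 34 h, in place of 3, 4 and 5; over all genes the counts were 164, 396 and 1868 in place of 384, 933 and 3578. With the compared time points alone 2 of the 9 were called at 50 h, and the counts over all genes were 171 at 42 h, 431 at 50 h, 0 for 50 h against 42 h (14 in the main analysis) and 367 for 72 h against 50 h (1093 in the main analysis, 380 without the filter). For 50 h against 42 h the count was also 34 without the filter, 24 at a mean of at least 5 TPM, 27 without a variance trend and 4 with rows apart, and the 9 raised of 14 became 9 of 18 after trimmed-mean rescaling and 9 of 20 after quantile normalization. Without a variance trend 1 of the 9 was called for 72 h against 50 h.

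With the replicate block 7 genes were called for 50 h against 42 h, and it changed no call of the 9 genes; the calls of other named genes that it changed against 34 h stand beside them in the results, apart from 2 pluripotency markers, TDGF1 at 42 h (adjusted p 0.0349 with it and 0.0594 without) and LIN28A at 50 h (0.0531 and 0.0467). Leaving out 1 library at a time, the counts over all genes ran from 160 to 385 at 42 h, 412 to 809 at 50 h and 1840 to 3661 at 72 h against 34 h, 1 to 8 for 50 h against 42 h and 319 to 929 for 72 h against 50 h. Of the 9 genes 2 to 3, 2 to 4 and 4 to 5 were called against 34 h, with 2 at 50 h without replicate 1 at 34 h or replicate 2 at 50 h, and 0 in both later steps.

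Sign changes were in changes that had no call. For 50 h against 42 h CTNNB1 had -0.02 after trimmed-mean rescaling and -0.01 after quantile normalization and without mitochondrial genes, and PYGO1 had -0.00 after trimmed-mean rescaling. With 1 library left out at a time, the changes for 50 h against 42 h ran from -0.18 to 0.19 for CTNNB1, -0.07 to 0.10 for PYGO1, -0.14 to 0.02 for LEF1, -0.12 to 0.11 for TCF7L2 and -0.09 to 0.30 for BCL9. At 42 h against 34 h they ran from -0.17 to 0.48 for BCL9L and -0.36 to 0.01 for CTNNB1, at 50 h against 34 h from -0.61 to 0.05 for BCL9L, and at 72 h against 34 h from -0.13 to 0.04 for CTNNB1. For 72 h against 50 h they ran from -0.27 to 0.01 for BCL9L, -0.04 to 0.29 for CTNNB1 and -0.17 to 0.22 for BCL9.

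Shares taken from log2(TPM + 1) in place of TPM were closer together: LEF1 17.8%, 26.2% and 25.1% at 34, 50 and 72 h, TCF7 13.4%, 21.9%, 20.6% and 18.9% at the 4 time points, TCF7L1 35.0%, 26.8%, 26.9% and 26.7%, and TCF7L2 33.8%, 25.6%, 26.3% and 29.4%.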
